A study of Homo sapiens with 12 samples.

Results

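The peroxiredoxin and thioredoxin genes PRDX1, PRDX2, PRDX3, PRDX4, PRDX5, PRDX6, TXN, TXN2, TXNRD2 and TXNIP were taken by gene name from the deposited count table, where they were 10 of 58735 genes. All 10 passed the filter on low counts, which required raw counts averaging 10 or more across the libraries and kept 16618 genes. They lie on chromosomes 1 (PRDX1, PRDX6 and TXNIP), 9 (TXN), 10 (PRDX3), 11 (PRDX5), 19 (PRDX2), 22 (TXN2 and TXNRD2) and X (PRDX4) of GRCh38. HaCaT, a spontaneously immortalized skin keratinocyte line, and TIGK, a gingival keratinocyte line immortalized with telomerase, were compared to ask how skin and oral cells differ under oxidative stress. Both lines were grown to confluence in DermaLife K Keratinocyte Complete Medium and either left untreated or exposed to 5 mM H2O2 for 3 h. Polyadenylated RNA was sequenced from 3 samples of each of these 4 groups, 12 libraries in all. Each cell type is represented by 1 line, so a difference between the lines cannot be told apart from a difference between skin and gingiva. Nothing in the labels states that the 3 samples of a group were grown on separate days, so p-values measure the spread between these samples.

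Peroxiredoxins are peroxidases that reduce hydrogen peroxide with a reactive cysteine. Most of them are then reduced by thioredoxin, which is recharged by thioredoxin reductase at the cost of NADPH. The cytosol, the mitochondria and the endoplasmic reticulum (ER) each hold members of their own. PRDX1, PRDX2 and PRDX6 are mainly cytosolic, PRDX3 is mitochondrial, PRDX5 is found in mitochondria, peroxisomes and cytosol, and PRDX4 works in the ER. TXN is the cytosolic thioredoxin, TXN2 its mitochondrial counterpart, TXNRD2 the mitochondrial reductase, and TXNIP an arrestin-like protein that binds and inhibits thioredoxin.

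Total counts per library lay between 30426401 and 49034244, and the 10 genes together held 0.167% to 0.329% of them. All 7 keratinocyte markers examined passed the filter, and their summed level lay between 1147440 and 1395080 normalized counts per library, against 1.04 to 5.92 for 4 leukocyte markers. Summed levels were 311 to 932 for 5 fibroblast markers, 27.8 to 93.8 for 4 melanocyte markers and 5.80 to 59.7 for 3 endothelial markers. Of the fibroblast markers, COL1A1 had 294 to 668 over all libraries, and DCN had 152 to 261 in TIGK and 0 to 6.63 in HaCaT. PDGFRB and LUM had at most 37.1 and 14.3, and COL1A2 was at 0 in all libraries. A normalized count is a count after TMM scaling to the mean library size. It is a share of the RNA sequenced, so in these bulk samples fewer cells expressing a gene and less of its RNA per cell cannot be told apart.
Among the replicates, untreated TIGK replicate 3 and H2O2-treated HaCaT replicates 1 and 3 stood apart in a way linked to transcript length. Relative to the mean of its group, the median gene with a canonical transcript under 1000 bases lay 0.14 lower on the log2 scale in untreated TIGK replicate 3, and by 0.17 lower and 0.21 higher in treated HaCaT replicates 1 and 3. Most of the 10 genes have short transcripts, from 737 bases (TXN) to 2905 bases (TXNIP), so this is given again beside the responses.

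Per length of the canonical transcript, TXN was the most abundant of the 10 in 11 of the 12 libraries and PRDX1 in the other one, untreated TIGK replicate 3. This level, a TMM-scaled RPKM on the canonical transcript length, was 393 ± 80.2 (SD, n = 3) for TXN in untreated TIGK and 599 ± 43.7 in untreated HaCaT. PRDX1 had 353 ± 34.1 and 313 ± 6.02 on the same scale. TXN2 ranked 9th and TXNRD2 10th in all 12 libraries, with 37.6 ± 1.05 and 13.9 ± 0.761 in untreated TIGK and 31.8 ± 1.00 and 23.9 ± 1.17 in untreated HaCaT. The cytosolic thioredoxin RNA was far above the mitochondrial one in both lines. The ratio of TXN to TXN2 per length was 8.22 to 12.0 in untreated TIGK and 17.7 to 19.6 in untreated HaCaT, with no overlap. The rank of TXNIP differed between the lines. It had 134 ± 8.49 per length in untreated TIGK, near PRDX6 (138 ± 10.9), PRDX2 (131 ± 3.71) and PRDX5 (146 ± 8.55), and 269 ± 9.75 in untreated HaCaT, where only TXN and PRDX1 were above it. With the gene lengths of the deposited table, TXNIP lay above PRDX1 in HaCaT.

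**Figure D1:**
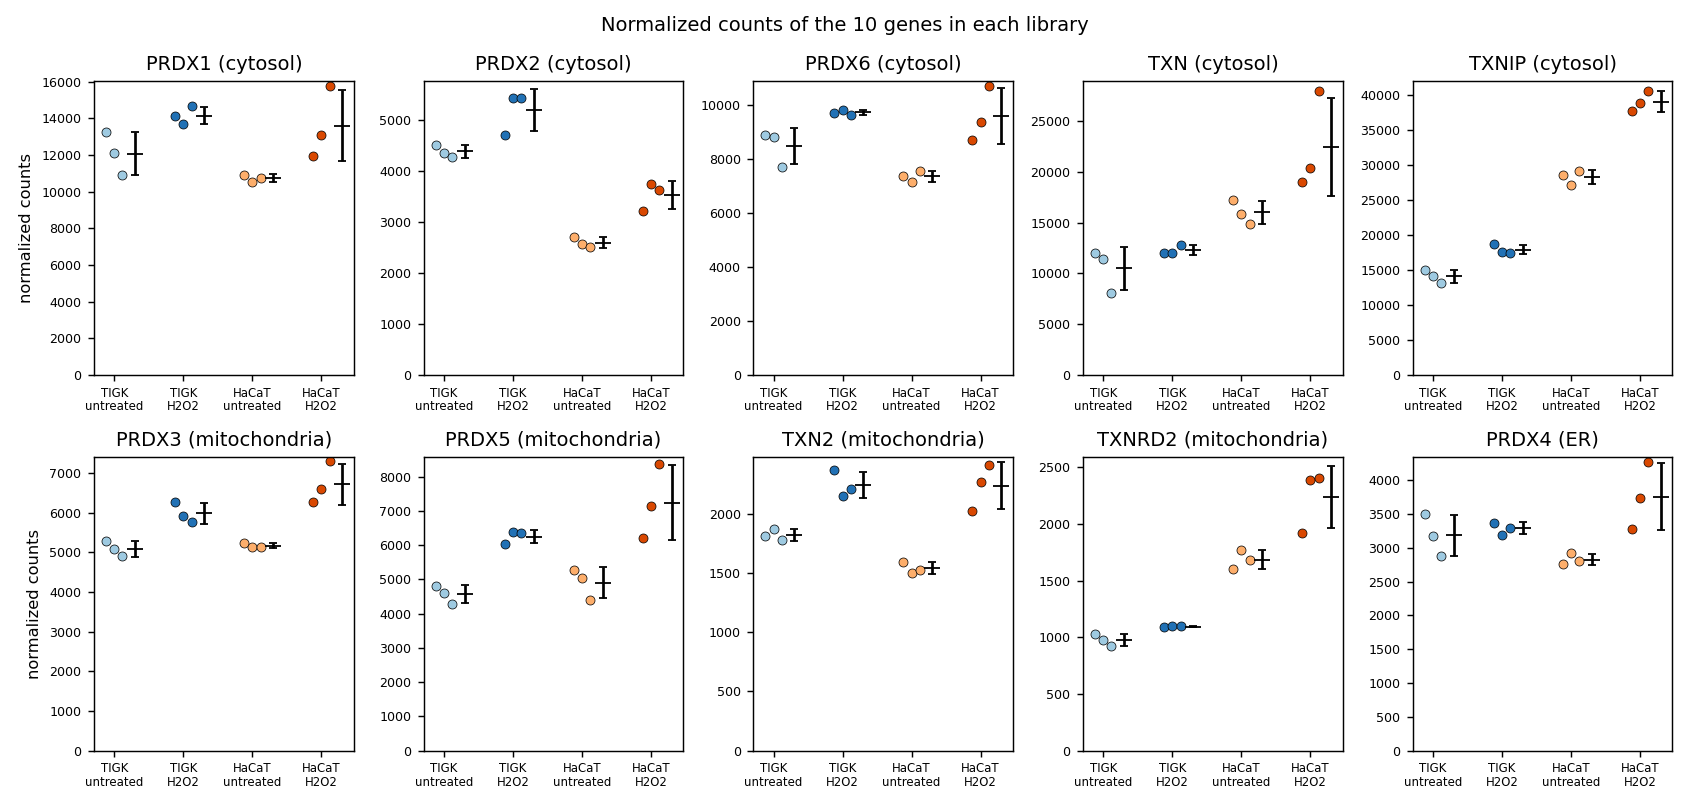
Normalized counts (linear axes from 0) of the 10 genes in the 12 libraries, with points for libraries and bars for the mean and SD of each group of 3. TXNIP separated all 4 groups, from 13174 to 14958 in untreated TIGK up to 37728 to 40662 in H2O2-treated HaCaT, whereas the groups of PRDX4 overlapped in TIGK.

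After H2O2, all 10 genes rose in HaCaT and 5 of 10 rose in TIGK, namely PRDX2, PRDX3, PRDX5, TXN2 and TXNIP, and the point estimate of all 10 was above 0 in both lines (edgeR quasi-likelihood test, adjusted p under 0.01). The rises were small, at most 1.47-fold in HaCaT and 1.37-fold in TIGK, both for PRDX5. Of all genes tested, 18.9% rose in HaCaT and 10.2% in TIGK, and 15.2% and 12.9% fell. The treated libraries lay above all untreated ones for 10 of 10 genes in HaCaT, where 29.7% of all tested genes did so, and for 8 of 10 in TIGK, where 25.7% did. The median log2 fold change of the 10 genes was 0.43 in HaCaT and 0.23 in TIGK, against 0.04 and 0.01 over all genes tested.

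Other genes with short transcripts rose as well. Among tested genes with a mean of at least 100 normalized counts, the median log2 fold change in HaCaT was 0.41 for canonical transcripts under 1000 bases, 0.30 for 1000 to under 2000 bases, 0.14 for 2000 to under 4000 bases and -0.12 for longer ones. In TIGK the medians of the same classes were 0.23, 0.16, 0.06 and -0.10. TXN, PRDX1, PRDX2, PRDX4 and PRDX5 belong to the shortest class, PRDX3, PRDX6, TXN2 and TXNRD2 to the next, and TXNIP to the third. In the shortest class 44.4% of these genes rose in HaCaT and 12.9% in TIGK, and in the next class 48.6% and 18.6%.
When the trend of expression over transcript length was removed within each library, an alternative chosen after seeing the data, 3 of 10 genes still passed in HaCaT (TXNIP, PRDX5 and TXN2) and 2 of 10 in TIGK (TXNIP and PRDX5). Of all genes tested, 12.0% rose in HaCaT and 10.4% in TIGK in that fit, and 15.0% and 13% fell. The medians of the 10 genes were then 0.13 and 0.06, against -0.01 and -0.02 over all genes. With the gene lengths of the deposited table in place of transcript lengths, 5 passed in HaCaT (these 3, PRDX3 and TXNRD2) and the same 2 in TIGK, against 12.8% and 10.2% of all genes that rose. What gave rise to the length trend was not tested.

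**Figure D2:**
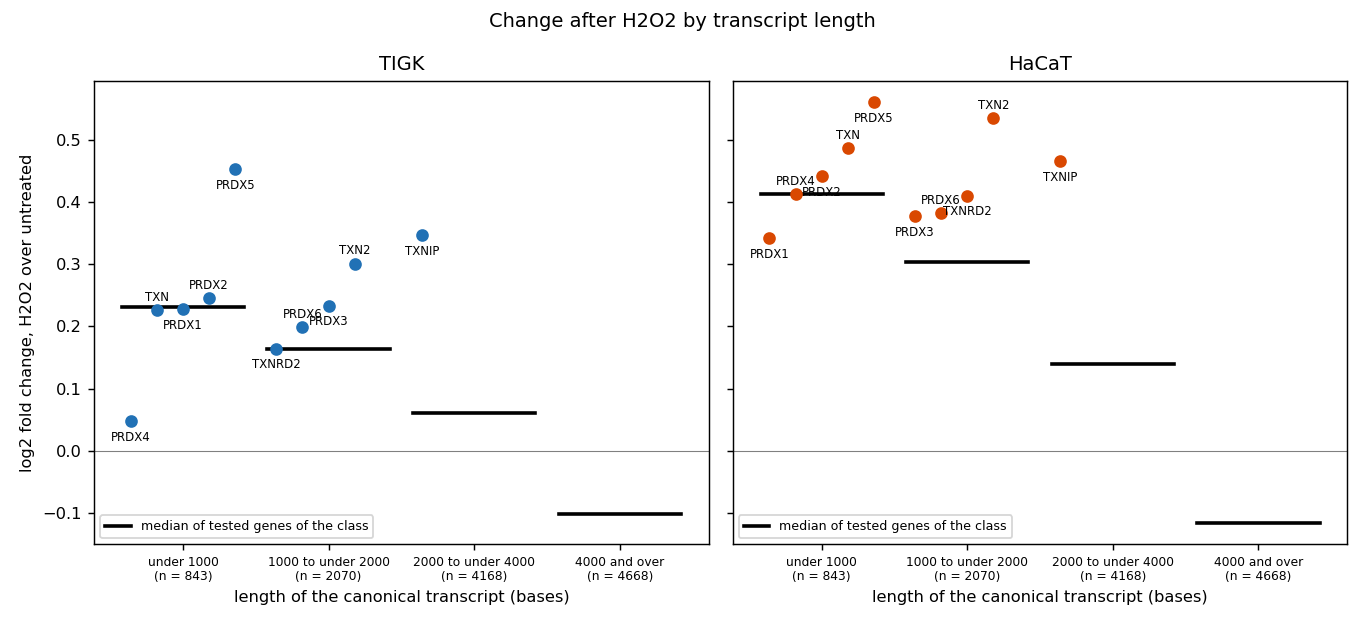
Log2 fold change after H2O2 of the 10 genes (points), grouped by the length of the canonical transcript in bases, beside the median of tested genes of each length class with a mean of at least 100 normalized counts (black lines, with their number n), in TIGK (left) and HaCaT (right). TXNIP, PRDX2, PRDX3, PRDX5, PRDX6 and TXN2 lay above the line of their class in both lines, as did TXNRD2, though barely in TIGK. PRDX1 lay below the 0.41 of its class in HaCaT.

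Of the cytosolic peroxiredoxins, PRDX1 had 13253, 12091 and 10916 normalized counts in untreated TIGK and 14120, 13694 and 14664 after H2O2. In HaCaT it had 10934, 10522 and 10753 untreated and 11972, 13087 and 15782 after H2O2. The libraries did not overlap in either line, but the treated HaCaT libraries spread widely and replicate 3 was the highest. PRDX1, a major H2O2 scavenger and the most abundant peroxiredoxin here, rose in HaCaT by 0.34 on the log2 scale (95% interval 0.17 to 0.51, edgeR adjusted p = 0.00215). In TIGK its value was 0.23 (0.06 to 0.40, edgeR adjusted p = 0.0359), past 0.05 but not 0.01. Without treated HaCaT replicate 3 the value in HaCaT was 0.22 with an edgeR adjusted p of 0.0103, and with the transcript length trend removed it was 0.0023. The HaCaT call was also lost without untreated HaCaT replicate 2 (edgeR adjusted p = 0.0115), and the TIGK value passed without treated HaCaT replicate 1 or 3 (edgeR adjusted p = 0.00855 and 0.0042).
PRDX2, a second scavenger of the same type, had 4523, 4367 and 4277 normalized counts in untreated TIGK and 4722, 5437 and 5445 after H2O2. It had 2714, 2575 and 2513 in untreated HaCaT and 3217, 3749 and 3640 after H2O2. All 4 groups were apart from each other, with the highest level in treated TIGK. PRDX2 rose by 0.25 (0.11 to 0.38) in TIGK and by 0.44 (0.30 to 0.58) in HaCaT, with edgeR adjusted p of 0.00738 and 3.95e-05. In TIGK this call was lost without any one of the 3 untreated TIGK libraries, treated TIGK replicates 2 or 3, or untreated HaCaT replicate 2, at edgeR adjusted p up to 0.0282, and the whole PRDX2 span lies within the annotated span of HOOK2 on the same strand, so the 2 genes may share reads. After removal of the transcript length trend PRDX2 passed in neither line, at 0.06 in TIGK and 0.11 in HaCaT (edgeR adjusted p = 0.499 and 0.174).
PRDX6, which reduces peroxides of phospholipids as well and uses glutathione rather than thioredoxin, ranged from 7696 to 8882 normalized counts in untreated TIGK, from 9637 to 9833 after H2O2, from 7150 to 7555 in untreated HaCaT and from 8705 to 10711 after H2O2. It rose by 0.38 (0.24 to 0.53) in HaCaT (edgeR adjusted p = 0.000208), and its value in TIGK was 0.20 (0.05 to 0.34, edgeR adjusted p = 0.0305), which passed without treated HaCaT replicate 1 or 3 (edgeR adjusted p = 0.00736 and 0.00598). The HaCaT call was lost with the transcript length trend removed, at 0.14 (edgeR adjusted p = 0.0292).

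Among the mitochondrial members, PRDX5 rose in both lines. It had 4814, 4607 and 4284 normalized counts in untreated TIGK and 6039, 6374 and 6349 after H2O2, and 5273, 5055 and 4400 in untreated HaCaT and 6212, 7134 and 8379 after H2O2. The treated libraries lay above the untreated ones in both lines. PRDX5, an atypical peroxiredoxin that also acts on organic peroxides and peroxynitrite, rose by 0.45 (0.27 to 0.63, edgeR adjusted p = 0.000462) in TIGK and by 0.56 (0.38 to 0.74, edgeR adjusted p = 4.18e-05) in HaCaT. With the transcript length trend removed, its rises were 0.26 and 0.22, with edgeR adjusted p of 0.000325 and 0.00189. It had the highest log2 fold change of the 10 genes in both lines in the fit to all 12 libraries before that removal, and TXNIP after it. Without untreated or treated HaCaT replicate 3, TXN2 was above PRDX5 in HaCaT.
PRDX3, the peroxiredoxin of the mitochondrial matrix, ranged from 4899 to 5296 normalized counts in untreated TIGK and from 5142 to 5238 in untreated HaCaT, and the lines overlapped. After H2O2 it had 6274, 5931 and 5763 in TIGK and 6279, 6597 and 7297 in HaCaT, above every untreated library. It rose by 0.23 (0.11 to 0.36, edgeR adjusted p = 0.00442) in TIGK and by 0.38 (0.25 to 0.50, edgeR adjusted p = 4.52e-05) in HaCaT. The TIGK call was lost without untreated TIGK replicate 2 or 3 or treated TIGK replicate 1 (edgeR adjusted p up to 0.0304). After removal of the transcript length trend PRDX3 passed in neither line, at 0.09 in TIGK and 0.12 in HaCaT (edgeR adjusted p = 0.118 and 0.0392). With the gene lengths of the deposited table it passed in HaCaT, at 0.20 (edgeR adjusted p = 0.00321).
TXN2, which passes electrons to PRDX3 and PRDX5 in mitochondria, had 1812, 1877 and 1776 normalized counts in untreated TIGK and 2368, 2156 and 2212 after H2O2. It had 1598, 1504 and 1529 in untreated HaCaT and 2025, 2273 and 2417 after H2O2. The untreated lines were apart, with HaCaT lower, and the treated lines overlapped. TXN2 rose by 0.30 (0.16 to 0.44, edgeR adjusted p = 0.00197) in TIGK and by 0.54 (0.39 to 0.68, edgeR adjusted p = 5.44e-06) in HaCaT. The HaCaT rise was 0.25 with the transcript length trend removed (edgeR adjusted p = 0.00136), whereas the TIGK value was then 0.14 (edgeR adjusted p = 0.0559), and the TIGK call was also lost without treated TIGK replicate 1 (edgeR adjusted p = 0.0155).
TXNRD2, the reductase that recharges TXN2, had the lowest level and the tightest treated group in TIGK. Its normalized counts were 1028, 977 and 921 in untreated TIGK and 1087, 1095 and 1096 after H2O2, and 1602, 1767 and 1682 in untreated HaCaT and 1917, 2384 and 2408 after H2O2. The 4 groups did not overlap. TXNRD2 rose by 0.41 (0.24 to 0.58, edgeR adjusted p = 0.000412) in HaCaT, and its value in TIGK was 0.16 (-0.01 to 0.34, edgeR adjusted p = 0.133). The HaCaT call was lost with the transcript length trend removed, at 0.19 (edgeR adjusted p = 0.0231). It held with the gene lengths of the deposited table, at 0.52 (edgeR adjusted p = 6.6e-05).
These 4 genes are encoded in the nucleus. Over the same comparison the share of counts from mitochondrially encoded genes was lower, 3.33% to 3.45% in untreated and 1.39% to 1.5% in treated TIGK, and 6.10% to 6.26% and 3.30% to 3.51% in HaCaT. In a fit without the mitochondrially encoded genes, the same 5 genes rose in TIGK and 9 of 10 rose in HaCaT, where the exception, TXN, had 0.45 (edgeR adjusted p = 0.0101), while 10.7% and 15.2% of all genes tested rose.

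PRDX4, the peroxiredoxin of the ER that couples peroxide reduction to protein folding, rose in HaCaT. It had 3496, 3170 and 2877 normalized counts in untreated TIGK and 3371, 3195 and 3296 after H2O2, and these groups overlapped. In HaCaT it had 2754, 2914 and 2796 untreated and 3270, 3728 and 4269 after H2O2, without overlap. PRDX4 rose by 0.41 (0.24 to 0.58, edgeR adjusted p = 0.000453) in HaCaT, and its value in TIGK was 0.05 (-0.12 to 0.22, edgeR adjusted p = 0.688). The TIGK value was -0.02 without untreated TIGK replicate 3 and -0.14 with the transcript length trend removed. In HaCaT PRDX4 did not pass after that removal, at 0.07 (edgeR adjusted p = 0.248).

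Cytosolic TXN, the main electron donor of the cytosolic peroxiredoxins, varied more between replicates than the others. Its normalized counts were 12042, 11405 and 8051 in untreated TIGK and 12021, 12011 and 12826 after H2O2, so the TIGK groups overlapped. In HaCaT they were 17239, 15866 and 14915 untreated and 18985, 20362 and 27960 after H2O2, without overlap but with replicate 3 far above the others. The log2 fold change was 0.23 (-0.04 to 0.50, edgeR adjusted p = 0.181) in TIGK, and TXN rose by 0.49 (0.22 to 0.76, edgeR adjusted p = 0.00447) in HaCaT. The HaCaT value was 0.30 with an edgeR adjusted p of 0.029 without treated HaCaT replicate 3, 0.13 with the transcript length trend removed, 0.47 with an adjusted p of 0.0211 by DESeq2, and 0.45 with an edgeR adjusted p of 0.0101 without the mitochondrially encoded genes. The HaCaT call was also lost without untreated HaCaT replicate 2 or 3, untreated TIGK replicate 2, or treated TIGK replicate 2 or 3.

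TXNIP, whose protein restrains thioredoxin and limits glucose uptake, rose in both lines under every alternative run. It had 14958, 14188 and 13174 normalized counts in untreated TIGK and 18655, 17645 and 17502 after H2O2. It had 28539, 27196 and 29215 in untreated HaCaT and 37728, 38894 and 40662 after H2O2. All 4 groups were apart. TXNIP rose by 0.35 (0.23 to 0.46, edgeR adjusted p = 9.69e-05) in TIGK and by 0.47 (0.35 to 0.58, edgeR adjusted p = 2.84e-06) in HaCaT. Over these alternatives the values ran from 0.27 to 0.39 in TIGK and from 0.30 to 0.49 in HaCaT, and they were 0.30 and 0.36 with the transcript length trend removed.

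**Figure D3:**
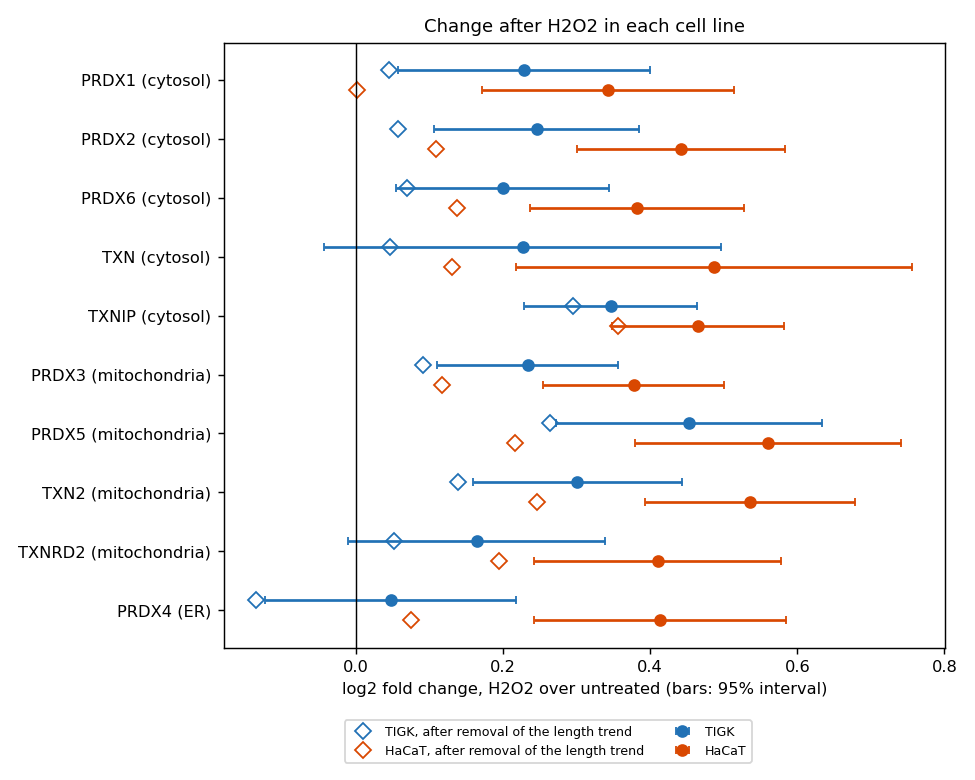
Log2 fold change after H2O2 of the 10 genes in TIGK and HaCaT (filled points with 95% intervals, from edgeR) and after removal of the transcript length trend (open diamonds, without intervals). The filled points of HaCaT lay between 0.34 and 0.56, and the diamonds of TXNIP and PRDX5 stayed above 0.2 in both lines.

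TXNIP and its paralog ARRDC4 are known targets of MLXIP (MondoA), which with its partner MLX binds paired E-boxes, CACGTG and its variants, upstream of both genes. Promoter windows from RefSeq (GRCh38.p14, 250 bases before the start site) were found for 7 of the 10 genes and for ARRDC4, but not for PRDX1, PRDX6 and TXN2. The windows of TXNIP, ARRDC4 and PRDX3 are shown from 5′ to 3′ on the strand of the gene, since TXNIP and ARRDC4 moved in opposite directions after H2O2. Among the members, PRDX3 carries the exact E-box, as does PRDX4. Capitals mark the paired E-boxes of TXNIP and the E-box CACGTG of ARRDC4 and PRDX3.
TXNIP, chr1:145996580-145996829, minus strand: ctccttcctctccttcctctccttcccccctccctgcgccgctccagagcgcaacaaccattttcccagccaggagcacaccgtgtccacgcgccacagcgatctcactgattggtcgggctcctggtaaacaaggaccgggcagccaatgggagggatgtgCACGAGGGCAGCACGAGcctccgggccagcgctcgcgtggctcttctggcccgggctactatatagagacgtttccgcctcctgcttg
ARRDC4, chr15:97960453-97960702, plus strand: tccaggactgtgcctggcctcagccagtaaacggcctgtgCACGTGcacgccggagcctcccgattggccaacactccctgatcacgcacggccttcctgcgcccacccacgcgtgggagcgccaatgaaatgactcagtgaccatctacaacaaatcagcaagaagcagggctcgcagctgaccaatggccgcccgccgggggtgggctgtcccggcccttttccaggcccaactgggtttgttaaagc
PRDX3, chr10:119178813-119179062, minus strand: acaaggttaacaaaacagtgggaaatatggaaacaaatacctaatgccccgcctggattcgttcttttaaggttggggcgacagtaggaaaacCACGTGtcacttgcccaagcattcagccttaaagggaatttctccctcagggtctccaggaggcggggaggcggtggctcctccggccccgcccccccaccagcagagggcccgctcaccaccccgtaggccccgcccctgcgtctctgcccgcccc
In TXNIP the pair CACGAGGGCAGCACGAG lay 88 to 72 bases before the start. A search of both strands for a pair of CACGNG separated by 5 bases found it in 16 of 35116 windows of this length, 0.0456%. The window of ARRDC4 shown here held a single CACGTG and no such pair. CACGTG was found 210 to 205 bases before the start of ARRDC4, 157 to 152 before that of PRDX3 and 83 to 78 before that of PRDX4, and is present in 6.34% of all windows. The window of PRDX4 belongs to a start 3231 bases from the 5′ end of the gene in the deposited table, and is not shown. ARRDC4 also had the AP-1 motif TGACTCA 119 to 113 bases before its start, found in 4.2% of windows. The antioxidant response element core TGACNNNGC, found in 10.9% of windows, was not matched in the 7 member windows. These matches are letters in a window, and no binding was measured.

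ARRDC4 fell where TXNIP rose. It had 4603, 4756 and 4823 normalized counts in untreated TIGK and 3054, 2851 and 2877 after H2O2, and 4851, 4618 and 5209 in untreated HaCaT and 3527, 3213 and 3150 after H2O2. It fell by 0.69 (edgeR adjusted p = 5.55e-08) in TIGK and by 0.57 (edgeR adjusted p = 5.79e-07) in HaCaT, without overlap in either line. ARRDC3, an arrestin-like adaptor of receptor turnover, fell by 0.97 (edgeR adjusted p = 3.28e-07) and by 1.60 (edgeR adjusted p = 5.95e-10), while ARRDC1 rose by 0.45 and 0.37 (edgeR adjusted p = 1.55e-05 and 6.16e-05).
The regulator MLXIP itself fell in both lines, by 0.49 (edgeR adjusted p = 0.000112) in TIGK and by 0.73 (edgeR adjusted p = 1.23e-06) in HaCaT. Its partner MLX rose by 0.26 in HaCaT (edgeR adjusted p = 0.00982) and had a value of 0.01 in TIGK (edgeR adjusted p = 0.916). MLXIPL (ChREBP), a scarce relative with 45.8 to 113 normalized counts over all TIGK libraries, rose by 0.82 in TIGK (edgeR adjusted p = 0.00887) and had a value of -0.20 in HaCaT. Of the 7 regulators and paralogs, 2 rose and 4 fell in TIGK and 3 rose and 3 fell in HaCaT, against 10.2% and 12.9% and 18.9% and 15.2% of all genes. With the transcript length trend removed, 1 rose (ARRDC1) and 4 fell in TIGK, and 0 rose and 3 fell in HaCaT (ARRDC3, ARRDC4 and MLXIP), against 10.4% and 13% and 12.0% and 15.0%.

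**Figure D4:**
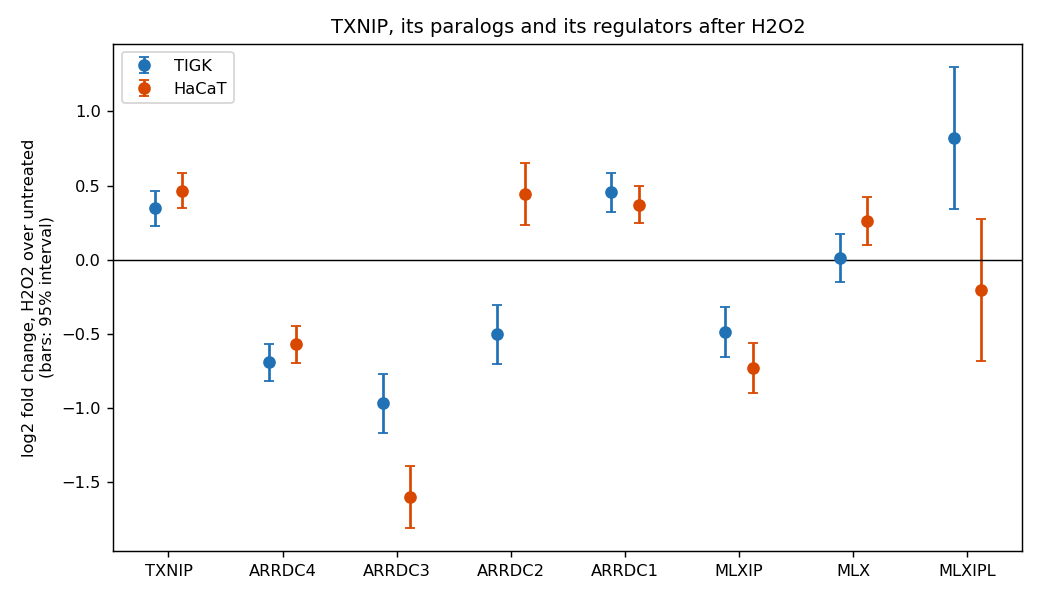
Log2 fold change after H2O2 with 95% intervals (edgeR) for TXNIP, 4 arrestin-like paralogs and 3 regulators in TIGK and HaCaT. TXNIP lay above 0 in both lines while ARRDC4, ARRDC3 and MLXIP lay below 0, and ARRDC2 was -0.50 in TIGK and 0.44 in HaCaT.

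The responses of the lines were then compared directly, as the change in TIGK minus the change in HaCaT. The difference passed the limit for 0 of 10 genes by edgeR, against 5.3% of all genes tested, and for 0 by DESeq2, against 9.5%. By edgeR, 3 of 10 (TXN2, TXNRD2 and PRDX4) had an unadjusted p under 0.05. All 10 differences were below 0, with a median of -0.19, while 44.8% of all genes tested were above 0. Short transcripts in general had differences below 0. Among tested genes with a mean of at least 100 normalized counts, the class medians were -0.17, -0.13, -0.07 and 0.03 from shortest to longest. Of the 10 differences, 2 were above 0 with the transcript length trend removed (PRDX1 and PRDX5). The largest, except with the gene lengths of the deposited table, was that of PRDX4, -0.37 (-0.61 to -0.12, edgeR adjusted p = 0.0449), which was -0.21 with the transcript length trend removed (edgeR adjusted p = 0.0526). The smallest was that of PRDX5, -0.11 (-0.36 to 0.15). For TXNIP the interval was -0.28 to 0.05 and for TXN -0.64 to 0.12, so these samples do not exclude differences within these intervals. For a gene that passed in HaCaT and not in TIGK, the responses were thus not shown to differ.

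The lines also differed without treatment. TXNIP, TXNRD2 and TXN were higher in HaCaT, and PRDX2 and TXN2 were higher in TIGK. This is 3 of 10 higher and 2 of 10 lower in HaCaT, against 29.1% and 30.8% of all genes tested (edgeR adjusted p under 0.01). The libraries of the lines did not overlap for 3 genes higher and 3 lower in HaCaT, against 36.2% and 37.1% of all genes. TXNIP was 2.01 times as high in HaCaT, a log2 difference of 1.01 (0.89 to 1.12, edgeR adjusted p = 8.02e-12). TXNRD2 differed by 0.79 (0.61 to 0.96, edgeR adjusted p = 7.25e-08) and TXN by 0.61 (0.34 to 0.88, edgeR adjusted p = 0.000356). PRDX2 was lower in HaCaT by -0.75 (-0.90 to -0.61, edgeR adjusted p = 7.71e-09) and TXN2 by -0.24 (-0.38 to -0.09, edgeR adjusted p = 0.00462). The calls of TXNIP, TXNRD2, TXN and PRDX2 held under all alternatives run. That of TXN2 was lost under 9 of 22, among them without untreated TIGK replicate 1 or 2, untreated HaCaT replicate 2 or 3, treated TIGK replicate 2 or 3, or treated HaCaT replicate 2, where its value ran from -0.24 to -0.20.
The remaining peroxiredoxins did not pass between the untreated lines in the main test. The HaCaT minus TIGK log2 difference was 0.02 (-0.10 to 0.15) for PRDX3, 0.10 (-0.08 to 0.29) for PRDX5, -0.17 (-0.34 to 0.00049) for PRDX1, -0.17 (-0.34 to -0.0022) for PRDX4 and -0.20 (-0.35 to -0.06) for PRDX6. The edgeR adjusted p of PRDX6 was 0.0142, and the 3 untreated HaCaT libraries lay below the 3 of TIGK. PRDX6 passed as lower in HaCaT under 9 of 22 alternatives. Among them were DESeq2 (-0.22, DESeq2 adjusted p = 0.00661), scaling by RLE and the groups compared alone (edgeR adjusted p = 0.00992 and 0.00403). Others were the fits without untreated TIGK replicate 3 or treated HaCaT replicate 3 (edgeR adjusted p = 0.00213 and 0.00238). With the transcript length trend removed, PRDX1, PRDX4 and PRDX6 passed as lower in HaCaT, at -0.20, -0.20 and -0.19 (edgeR adjusted p = 0.000427, 0.00122 and 0.00148), and they also passed when untreated TIGK replicate 3 and treated HaCaT replicate 3 were both left out.

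After H2O2 the order was largely kept, with 3 of 10 genes higher and 1 of 10 lower in HaCaT, against 30.2% and 29.8% of all genes tested. TXNIP differed by 1.12 (1.01 to 1.24, edgeR adjusted p = 1.54e-12), TXNRD2 by 1.03 (0.86 to 1.20, edgeR adjusted p = 1.34e-09) and TXN by 0.87 (0.60 to 1.14, edgeR adjusted p = 7.26e-06). PRDX2 was lower in HaCaT by -0.56 (-0.70 to -0.42, edgeR adjusted p = 4.62e-07). The libraries did not overlap for 4 genes higher (these 3 and PRDX3) and 1 lower in HaCaT, against 35.8% and 35.6% of all genes. These comparisons use the same libraries as the responses, so their values are not independent of them. TXN2 had a value of -0.0039 (-0.15 to 0.14) between the treated lines. With the transcript length trend removed, PRDX1 also passed as lower in HaCaT, at -0.24 (edgeR adjusted p = 4.9e-05). Without treated HaCaT replicate 1, PRDX5 passed as higher in HaCaT, at 0.27 (edgeR adjusted p = 0.00602).

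**Figure D5:**
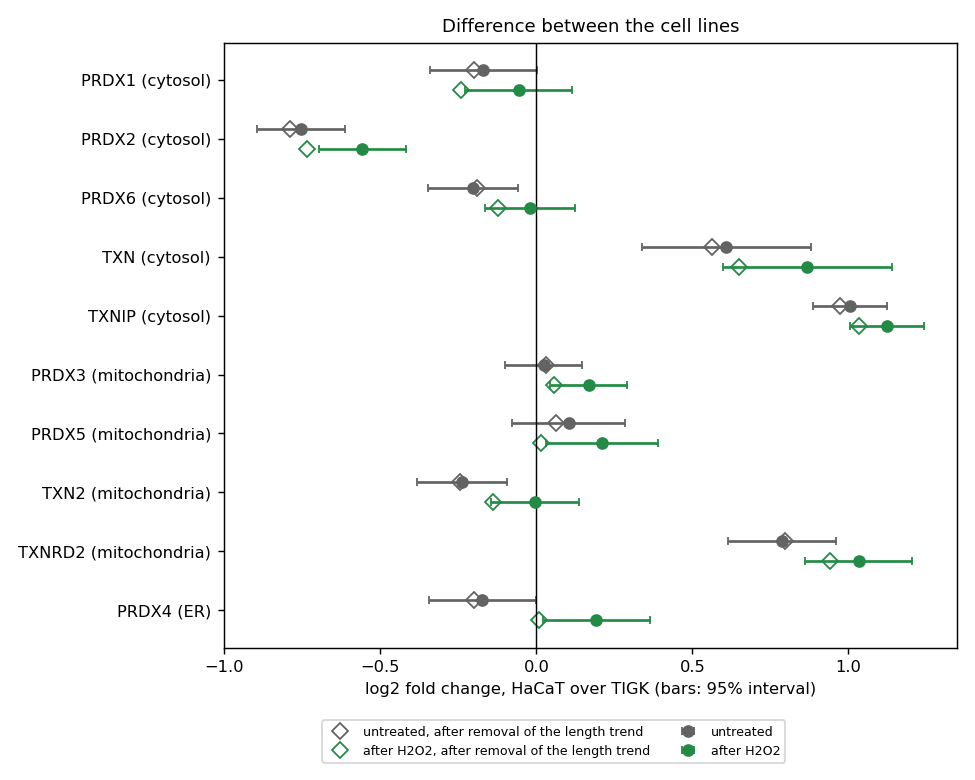
Log2 difference HaCaT over TIGK of the 10 genes in untreated and H2O2-treated cells (filled points with 95% intervals, from edgeR) and after removal of the transcript length trend (open diamonds, without intervals). TXNIP, TXNRD2 and TXN lay above 0 and PRDX2 below 0 in both conditions, from -0.75 for PRDX2 to 1.12 for TXNIP.

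Ratios within a library are free of the scaling between libraries but not of the length trend. Of the summed per-length level of the 6 peroxiredoxins, the mitochondrial pair PRDX3 and PRDX5 held 24.5% to 25.5% in untreated TIGK and 26.6% to 27.6% after H2O2, and 28.2% to 30.4% in untreated HaCaT and 31.3% to 31.5% after H2O2. The share of PRDX4 was 9.44% to 9.93% and 8.20% to 8.73% in TIGK, and 9.22% to 10.0% and 9.51% to 9.78% in HaCaT. The libraries of the share of PRDX3 and PRDX5 did not overlap between treatments in either line, being higher after H2O2. Those of the PRDX4 share did not overlap in TIGK, being lower after H2O2, but overlapped in HaCaT. PRDX5 was 1.58 to 1.64 times PRDX3 in untreated TIGK and 1.74 to 1.99 times after H2O2. In HaCaT this ratio was 1.55 to 1.82 untreated and 1.79 to 2.07 after H2O2, with overlap. PRDX5 is also found in peroxisomes and cytosol, so its share with PRDX3 does not measure the mitochondrial compartment alone. With 3 libraries against 3, an exact permutation test cannot give a p below 0.1.
Per-length TXNRD2 was 0.357 to 0.391 of TXN2 in untreated TIGK and 0.690 to 0.809 in untreated HaCaT, and 0.316 to 0.350 and 0.652 to 0.722 after H2O2. PRDX1 was 2.50 to 2.87 times PRDX2 in untreated TIGK and 3.94 to 4.19 times in untreated HaCaT. The ratio of TXNIP to TXN overlapped between untreated and treated libraries in both lines, with 0.315 to 0.415 and 0.346 to 0.394 in TIGK and 0.420 to 0.497 and 0.369 to 0.504 in HaCaT.

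Other genes of the pathway were counted beside all genes tested, of which 18.9% rose and 15.2% fell in HaCaT and 10.2% and 12.9% in TIGK. Of the 6 reductase and repair genes, SESN2, a stress-induced sestrin, fell by 0.49 in TIGK (edgeR adjusted p = 8.94e-05) and had a value of -0.03 in HaCaT, and the other 5 did not pass in either line, with 1 of 6 at an unadjusted p under 0.05 in each line. After removal of the transcript length trend, SESN3 rose in both lines, by 0.32 in TIGK and 0.34 in HaCaT (edgeR adjusted p = 0.000133 and 0.000164), SESN1 rose by 0.48 in HaCaT (edgeR adjusted p = 0.00396), and SESN2 still fell in TIGK. TXNRD1, the cytosolic reductase of TXN, had values of 0.11 (-0.02 to 0.24) in TIGK and -0.08 (-0.21 to 0.05) in HaCaT, and SRXN1, which repairs over-oxidized peroxiredoxins, had -0.35 (-0.73 to 0.02) and -0.08 (-0.43 to 0.27). Between the untreated lines TXNRD1 and TXNRD2 went opposite ways. TXNRD1 had 8056, 7319 and 7557 normalized counts in untreated TIGK and 3690, 3473 and 3992 in untreated HaCaT, a log2 difference of -1.04 (edgeR adjusted p = 1.92e-11). SESN2, SESN3 and SESN1 were also lower in HaCaT, by -2.15, -1.50 and -1.02 (edgeR adjusted p = 3.75e-14, 1.32e-12 and 4.86e-07). SRXN1 and TXNRD3 were higher by 0.72 and 0.93 (edgeR adjusted p = 0.00103 and 1.55e-08). Thus 2 of the 6 were higher and 4 lower in untreated HaCaT, against 29.1% and 30.8% of all genes tested.
Of 8 proteins that thioredoxin reduces or binds, MSRB1, a selenoprotein that repairs oxidized methionine, and MAP3K5 (ASK1), a stress kinase held inactive by thioredoxin, rose in both lines. MSRB1 rose by 0.63 in TIGK and 0.81 in HaCaT (edgeR adjusted p = 0.00116 and 0.000115), and MAP3K5 by 0.57 and 0.70 (edgeR adjusted p = 0.00015 and 1.91e-05). RRM2, a subunit of ribonucleotide reductase, fell by 0.33 in HaCaT (edgeR adjusted p = 0.000269). With the transcript length trend removed, MSRB1 and MAP3K5 still rose in both lines, by 0.46 and 0.64 in TIGK and 0.51 and 0.78 in HaCaT.
Of 15 other proteins with a thioredoxin fold, 8 rose and 2 fell in HaCaT, while TMX3 and TMX4 fell and none of the other 13 passed in TIGK, where 6 of 15 had an unadjusted p under 0.05 (edgeR, adjusted p under 0.01). Over all genes 18.9% rose and 15.2% fell in HaCaT. TXNDC17 rose by 0.58 in HaCaT (edgeR adjusted p = 0.000596) and had 0.42 in TIGK (edgeR adjusted p = 0.0117). After removal of the trend, 4 rose and 1 fell in HaCaT, where 12.0% and 15.0% of all genes did, and 1 rose and 2 fell in TIGK, against 10.4% and 13%. Of the 4 glutaredoxins, GLRX3 and GLRX5 rose in HaCaT, by 0.30 and 0.42, and neither they nor the other two passed in TIGK, where 2 of 4 had an unadjusted p under 0.05. Once the transcript length trend was removed, none of the 4 passed in HaCaT, with 0.0078 for GLRX3 and 0.10 for GLRX5 (edgeR adjusted p = 0.928 and 0.175), and GLRX2 fell by 0.35 in TIGK (edgeR adjusted p = 0.00509).

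Genes whose levels followed a member most closely over the 12 libraries were found by the root mean square of the log2 differences, after centring, among 11772 genes with at least 100 normalized counts. TXNIP was followed by URM1 (0.07), GPR108 (0.07) and ISCA2 (0.08), where the median gene had 0.61. PRDX3 was followed by PGK1 (0.03), SLC25A3 (0.04) and ACTL6A (0.04), where the median gene had 0.36. PRDX4 was followed by EIF6, CKS1B and SCNM1. These values describe likeness over libraries that share groups and length trends and carry no test.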

How the data were processed

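Counts of reads per gene had been deposited by the authors, without normalization, for 58735 genes in 12 libraries. Reads had been mapped to GRCh38 with HISAT2 2.0.5 and counted with featureCounts 1.5.0-p3, per the paper's methods and the submitters' processing notes, while the labels name HISAT2 2.0.0 and FPKM values. The values used are whole numbers with different totals. The annotation, the use of strand and the handling of multi-mapped reads are not given in the sources used here. The labels write the compound of treated replicates 2 and 3 with another last digit, while the treatment protocol names H2O2 for all. The deposited fold changes and adjusted p-values of the authors were not used. The table held 0 unused columns of sample values.

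The software was edgeR 4.0.16 (with limma 3.58.1) and, as an alternative, DESeq2 1.42.0 in R 4.3.3, with matplotlib 3.10.9 under Python 3.11.15 for plots. Genes whose raw counts averaged 10 or more entered a quasi-likelihood fit after TMM normalization with 1 mean per group over all 12 libraries, and p-values were adjusted by Benjamini and Hochberg over 16618 genes with a limit of 0.01. Intervals are at 95%. On simulated counts with 200 of 16618 genes changed in treated TIGK, edgeR called 174 with 3 false calls for the response of TIGK. DESeq2 called 178 with 9 false calls. These counts cover the 200 genes together. Whether rises as small as those of the 10 members would be called was not tested. All 10 members, the pathway genes from 5 hand-written lists and the closest 3 genes by pattern were named by rule, and list genes described singly were picked by their values. Some results that the rule names are not reported here. The members and lists were chosen with earlier results of these data known. Transcript lengths came from GENCODE v44, and the length trend was removed by an offset from a lowess curve per library with a span of 0.3. Counts of replicates differed by more than sampling noise in all 12 pairs (chi-square over degrees of freedom 4.57 to 30.3), so counting error alone understates the spread between samples. Alternatives were DESeq2, other scalings, filters and limits, fits of the groups compared alone, a replicate block and fits that left out libraries. Pseudogenes held at most 0.159% of the counts of their parent (PRDX3). PRDX1 shares 2347 bases with MMACHC on the opposite strand, and reads there cannot be told apart without strand.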

Additional observations from a re-analysis of the deposited data

Results flagged for a closer look

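Among the paralogs of TXNIP, ARRDC2 and ARRDC3 responded to H2O2 differently in the 2 lines by the test of the difference itself. ARRDC2 had 729, 694 and 732 normalized counts in untreated TIGK and 500.1, 497 and 523 after H2O2, and 359, 297 and 338 in untreated HaCaT and 465, 421 and 469 after H2O2. It fell by 0.50 in TIGK and rose by 0.44 in HaCaT, so that TIGK minus HaCaT was -0.95 (95% interval -1.23 to -0.66, edgeR adjusted p = 0.000146), and -0.87 with the transcript length trend removed. After that removal ARRDC2 still fell in TIGK, by 0.58 (edgeR adjusted p = 6.13e-05), but its value of 0.29 in HaCaT did not pass (edgeR adjusted p = 0.0262). ARRDC3 fell in both lines, from 1238, 1320 and 1365 to 728, 631 and 652 normalized counts in TIGK and from 1499, 1389 and 1172 to 486, 444 and 411 in HaCaT. Its difference was 0.63 (0.35 to 0.92, edgeR adjusted p = 0.0051), and 0.64 with the trend removed (edgeR adjusted p = 0.00177).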

How the results depend on the processing

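For the response of TIGK, 5 of 10 genes passed, where 10.2% of all genes tested rose, against 8 with no filter on low counts (7.65% of all genes), 3 with the replicate block (8.18%), 2 with either length offset (10.2% and 10.4%), and 3 to 7 when 1 library was left out (7.06% to 14.0%), with 3 without untreated TIGK replicate 2 or 3 or treated TIGK replicate 1. For HaCaT, 10 passed, where 18.9% of all genes rose, against 5 with the gene length offset (12.8%), 3 with the transcript length offset (12.0%), and 8 to 10 with 1 library left out (12.4% to 19.7%). Between the untreated lines 5 passed, against 8 with either length offset (61.3% and 62.1% of all genes, in either direction) or without untreated TIGK replicate 3 and treated HaCaT replicate 3 (60.2%), and 4 to 6 with 1 library left out (54.8% to 62.0%). Between the treated lines 4 passed, against 7 at an adjusted p under 0.05 (69.3%) and 4 to 5 with 1 library left out (55.0% to 60.5%), and for the difference of responses 0 passed, against 1 (PRDX4) at 0.05 (12.1%) and 0 with any library left out (3.23% to 6.60%). The length offsets and the fit without 2 libraries were chosen after seeing the data. Of 1090 values of single genes under alternatives, 989 kept direction and side of the limit, 51 lost the call, 33 gained it and 17 changed sign. The sign changes were PRDX4 in TIGK (-0.0201 to 0.12 with 1 library left out, below 0 only without untreated TIGK replicate 3, -0.0202 without 2 libraries, -0.13 with the gene length and -0.14 with the transcript length offset), PRDX1 in HaCaT (-0.0039, gene length), and PRDX3 between untreated lines (-0.0039 to 0.0523 with 1 library left out, below 0 only without untreated TIGK replicate 3, and -0.0038 without 2 libraries). Between treated lines they were TXN2 (-0.0774 to 0.0354 with 1 library left out, above 0 without treated TIGK replicate 1 or treated HaCaT replicate 1), PRDX6 (-0.107 to 0.0031, above 0 without the latter) and PRDX5 (-0.0187, gene length). For the difference of responses they were PRDX1 (-0.182 to 0.0057 with 1 library left out, above 0 without treated HaCaT replicate 3, 0.0417 with the gene length and 0.0433 with the transcript length offset) and PRDX5 (-0.162 to 0.0112, 0.0570 and 0.0487 in the same order, above 0 without the same library). Replicate numbers did not pair the samples, as deviations of same-numbered samples correlated at -0.12 to 0.03, and with the replicate block PRDX2 and PRDX3 lost their calls in TIGK, TXN in HaCaT and TXN2 between the untreated lines. The causes of these changes were not tested.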
